A study of Mus musculus with 12 samples.

Results

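The collagen chains are the protein-coding genes whose symbol is *Col*, a number, the letter a and a number, and the deposited table lists 33 of them among 14232 protein-coding genes. They were read in GFP(+) cells sorted by FACS from livers of adult *Prom1CreERT2-nLacZ/+;Rosa26Lsl-GFP/+* mice on the C57BL/6 background. Every animal received tamoxifen 7 days before surgery, so that cells with an active *Prom1* promoter, and their later progeny, carry GFP. The groups were day 0 (sham in the labels, before BDL in the study's methods), BDL day 3 and BDL day 14, where BDL is bile duct ligation, an operation that stops bile outflow and scars the liver. The labels hold 3, 3 and 6 libraries of these groups, and the means of the table correspond to 3, 3 and 4. By the study's account both sexes were in every group, with fewer males than females at day 0 and more males in both BDL groups. A part of sex in the differences was not tested. The GFP label depends on where *Prom1*-driven CreERT2 was active, and the sort took GFP(+) cells from a fraction enriched for nonparenchymal cells with no further surface marker named in the labels.

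Collagen chains wind around each other into helical molecules of the extracellular matrix. Fibrillar chains (types I, III, V, XI and XXVII) form the banded fibrils that accumulate in scar, FACIT chains decorate those fibrils, and type VI chains build beaded microfilaments that tie fibrils to cells. Type IV chains make the sheet-like network of basement membranes under epithelium and endothelium, multiplexins lie in the same zone, and transmembrane collagens sit in the cell surface. In liver, stellate cells, portal fibroblasts and vascular smooth muscle are known as the main producers of fibrillar collagen, and bile ducts and vessels rest on basement membrane.

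Each chain has 1 mean per group of counts scaled by the upper quartile method, here called the mean level. A mean at up to 4 times the lowest mean listed for its group (0.512 at day 0, 0.292 on day 3 of BDL and 0.244 on day 14) was read as the floor, and a ratio to it as a bound. Chains were compared by size where the sum over the 10 libraries reached 10, which 24 of 33 chains and 12071 protein-coding genes did. A chain listed only through its day 0 level could pass that minimum, so the counts below describe the chains that passed and are not independent of it. The table has no value for a named library, so no test was run and no SD could be taken directly. It does hold each gene's highest library and the geometric mean over all libraries. The first gives limits on single libraries, and the second gives an estimate of the within-group SD on the log2 scale, if the spread is log-normal and equal in all groups.

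The sort held much RNA of other cell types. The 8 macrophage markers (*Cd68*, *Csf1r*, *Clec4f* and others) summed to 12470 (day 0), 21930 (BDL day 3) and 18150 (BDL day 14). The 12 cholangiocyte markers, which the *Prom1* label was meant to reach, summed to 546, 222 and 844, most of it *Spp1* (459, 175 and 792). That the sum was higher at BDL day 14 than at day 0 rested on *Spp1*. *Krt19* had mean levels of 21.5, 12.7 and 14.3. Read depth per library is not known, and values are given with no counting interval. In bulk RNA a smaller number of cells of a type and less RNA per cell cannot be told apart.

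Collagen chains as a group were lowest at BDL day 3 and partly higher again at BDL day 14. Over all 33 chains, the mean levels summed to 1371 (day 0), 68.5 (BDL day 3) and 346 (BDL day 14), which was 0.149%, 0.00812% and 0.0470% of the summed signal of all genes. Of the 24 chains above the minimum, 18 (75.0%) had the order BDL day 3, BDL day 14, day 0 from low to high, against 17.95% of all protein-coding genes kept. Another 3 chains were lowest at BDL day 14 (*Col11a2*, *Col16a1* and *Col18a1*), and 3 were highest there (*Col4a2*, *Col12a1* and *Col13a1*).

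At BDL day 3, 22 of 24 chains were lower than at day 0 by more than 1.5-fold, where 28.9% of all genes kept were, and 0 were higher, where 18.8% of all genes were. A difference of at least 4-fold was seen in 21 chains, against 10.2% of all genes. The median log2 ratio of the chains was -4.36 and that of all genes -0.02. At BDL day 14, 19 chains were lower than at day 0 by more than 1.5-fold (28.5% of all genes) and 16 by at least 4-fold (9.17% of all genes), while only *Col13a1* was higher (20.5% of all genes). The median at BDL day 14 was -2.35, against -0.04 for all genes. From BDL day 3 to BDL day 14, 19 chains were higher by more than 1.5-fold (20.4% of all genes) and 13 by at least 4-fold (5.34% of all genes), and only *Col11a2* was lower (19.3% of all genes). That median was 2.24, against -0.01 for all genes. The comparisons share groups, so their counts are not separate pieces of evidence.

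**Figure D1:**
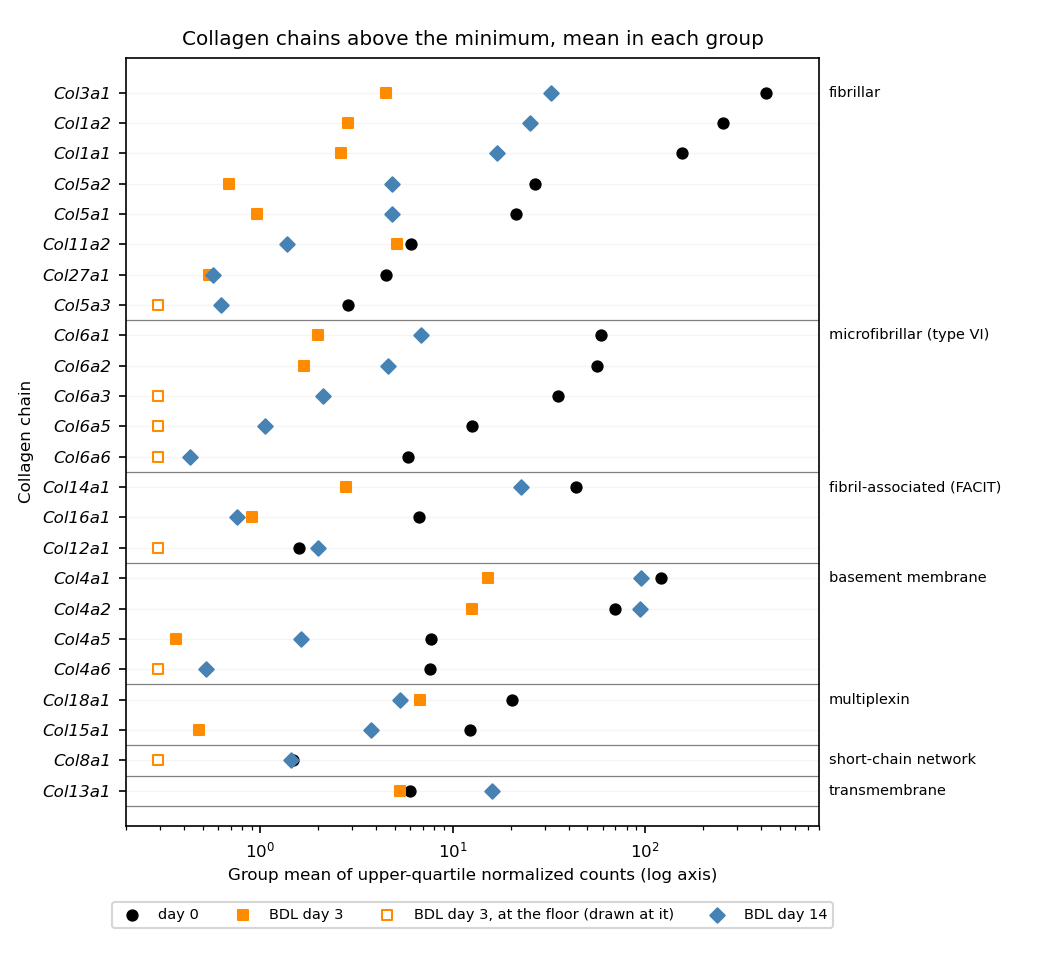
Mean level (upper-quartile normalized counts, log axis) of the 24 collagen chains above the minimum, for day 0 (circles), BDL day 3 (squares) and BDL day 14 (diamonds), by class. Open squares mark the 7 chains at the floor of BDL day 3, drawn at 0.292. Each point pools 3, 3 or 4 libraries and has no error bar. *Col3a1* spans 422 to 4.47, whereas *Col13a1* has 5.98, 5.29 and 16.0.

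The differences were larger than the spread estimated within groups for most chains. That spread had a median of 1.37 on the log2 scale over the 24 chains (0.53 to 2.14), and 0.56 over all genes kept. For genes with a mean of at least 10 over all libraries, it was 1.37 for 11 chains and 0.44 for all genes, so by this estimate libraries of a group differed more in collagen than in a typical gene. At BDL day 3, 22 chains were lower than day 0 by more than both 1.5-fold and this SD, against 23.4% of all genes. At BDL day 14, 19 chains were (23.3% of all genes). From BDL day 3 to BDL day 14, 16 chains were higher by more than both (16.0% of all genes).

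Limits on single libraries gave a stricter reading. The day 0 mean and the highest library set the least that the lowest day 0 library can be, and the sum of a BDL group sets the most that any of its libraries can be. By these limits every day 0 library exceeded every BDL day 3 library for 4 of 24 chains, *Col1a2*, *Col3a1*, *Col5a2* and *Col6a5*, against 1.76% of all genes. Against BDL day 14 this held for *Col3a1* and *Col6a5* (1.49% of all genes), which also are the 2 chains separate from both BDL groups (0.679% of all genes). At least 2 of the 3 day 0 libraries lay above every BDL day 3 library for 18 chains (8.35% of all genes) and above every BDL day 14 library for 12 chains (6.38% of all genes). For the other chains the limits leave room for overlap and do not show it.

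**Figure D2:**
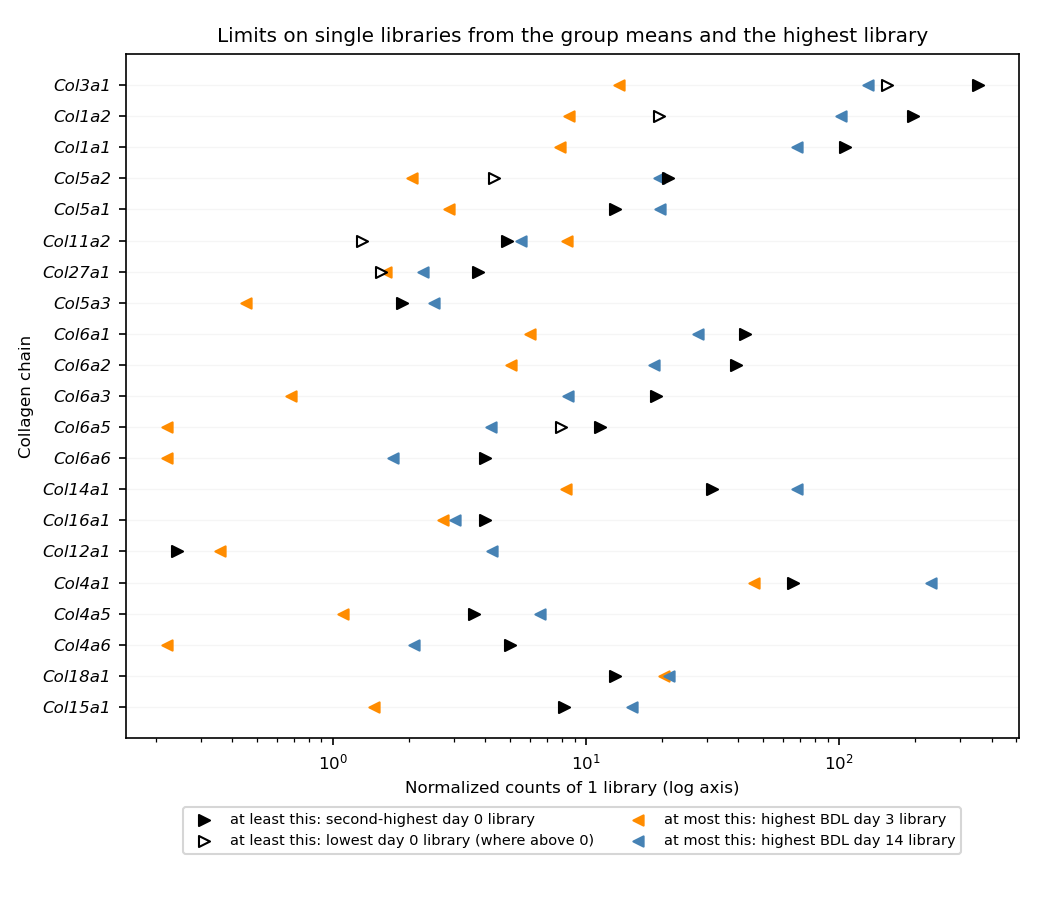
Limits on single libraries (normalized counts, log axis) for the 21 chains with a limit above 0 for the second-highest day 0 library. Filled and open black triangles are the least that the second-highest and the lowest day 0 library can be, and orange and blue triangles are the most that any BDL day 3 or BDL day 14 library can be. For *Col3a1* the lowest day 0 library is at least 154, and the others are at most 13.5 and 130.

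The highest library of the whole table fell at day 0 for 17 of the 24 chains, at BDL day 14 for *Col4a2* and *Col13a1*, and could not be placed for 5. It was placed only where the sum of 1 group alone could hold it, so this count follows from the group means. No share over all genes was taken beside it, and it is not read as a separate result about the chains. Where the highest library fell at day 0, it held 38.9% to 67.9% of the day 0 sum (median 54.0%). Equal libraries would hold 33.3% each, which is the least that a highest library can hold. Whether the same library was highest for each chain is unknown. With that library left out, the 22, 19 and 19 chains counted at the 1.5-fold limit stayed as many, and the medians became -3.80, -2.14 and 2.04. For the 5 chains whose highest library could not be placed (*Col4a1*, *Col8a1*, *Col11a2*, *Col12a1* and *Col14a1*) no library was left out.

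The fibrillar chains carried most of the day 0 signal. Their summed mean levels were 893 (day 0), 17.5 (BDL day 3) and 87.0 (BDL day 14), beside 208 (day 0), 28.5 and 191 for the basement membrane chains, which made up the larger part of the difference between the BDL groups. All 8 that passed were lower at BDL day 14 than at day 0 by more than 1.5-fold, and 7 were lower at BDL day 3, with class medians of -2.73 and -4.88 on the log2 scale. *Col3a1*, the chain of type III collagen (mm10 chr1:45311538-45349706, plus strand), had mean levels of 422 (day 0), 4.47 (BDL day 3) and 32.3 (BDL day 14). It was 94.4-fold lower at BDL day 3 and 13.1-fold lower at BDL day 14, with an estimated SD of 1.27. It is the fibrillar chain whose 3 day 0 libraries stood above both BDL groups by the limits.

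Type I collagen, the major fibril of scar, is built of *Col1a1* (chr11:94936224-94953042) and *Col1a2* (chr6:4504814-4541544) chains. *Col1a1* had mean levels of 155, 2.62 and 16.9 in the order day 0, BDL day 3 and BDL day 14, and was 59.2-fold and 9.17-fold lower than day 0. *Col1a2* had 255, 2.85 and 25.2, and was 89.5-fold and 10.1-fold lower. The pair thus differed alike between the groups, although *Col1a1* had the widest estimated spread of any chain (SD 2.14, against 1.55 for *Col1a2*). The second-highest day 0 library of *Col1a1* was at least 105, above the most that a BDL day 14 library can be, 67.9. Divided by the length of the longest coding transcript, *Col1a1* stood at 0.548 of *Col1a2* on day 0, and at 0.829 and 0.605 in the BDL groups.

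Type V chains start and regulate the width of type I fibrils. *Col5a1* had mean levels of 21.2, 0.954 and 4.85, and *Col5a2* had 26.7, 0.683 and 4.83. *Col5a2* was 39.1-fold lower at BDL day 3 and 5.53-fold lower at BDL day 14. Its lowest day 0 library was at least 4.33, above the 2.06 that a BDL day 3 library can be at most. *Col5a1* was 22.2-fold and 4.37-fold lower, and these became 13.9-fold and 2.74-fold without its highest day 0 library. *Col5a3*, a rarer type V chain, had 2.85, a floor value at BDL day 3 and 0.624, or at least 9.77-fold and then 4.57-fold below day 0.

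*Col27a1* and *Col11a2* are minor fibrillar chains best known from cartilage. *Col27a1* had mean levels of 4.49, 0.537 and 0.566, and so showed no return between the BDL groups. *Col11a2* had 6.06 at day 0 and 5.14 at BDL day 3, a ratio within the 1.5-fold limit, and 1.38 at BDL day 14, which was 4.39-fold lower than day 0. It was the fibrillar chain with the smallest estimated SD (0.57). In this class, these 2 low chains alone were not higher at BDL day 14 than at BDL day 3 by more than 1.5-fold.

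Type VI chains had the lowest class medians at both times. All 5 that passed were lower at both times by more than 1.5-fold, with medians of -5.06 at BDL day 3 and -3.61 at BDL day 14. *Col6a1* had mean levels of 58.6, 1.99 and 6.87, and *Col6a2* had 56.2, 1.68 and 4.61. These 2 partner chains, which lie in the same orientation on chr10 with 85161 bases between them, were 29.4-fold and 33.5-fold lower at BDL day 3. At BDL day 14 they were 8.53-fold and 12.2-fold lower.

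*Col6a3*, the large chain of the classical type VI molecule (chr1:90765923-90843971, minus strand), had 35.0, the floor and 2.11. The difference was at least 120.0-fold at BDL day 3 and 16.6-fold at BDL day 14, and its highest day 0 library held 63.0% of the day 0 sum. Without that library the differences were at least 66.5-fold and 9.19-fold. Per kb of transcript, *Col6a3* stood at 0.242 of *Col6a1* at day 0 and 0.125 at BDL day 14.

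*Col6a5* and *Col6a6* are close relatives of *Col6a3* and lie next to each other on chr9, with 27917 bases between them. *Col6a5* (chr9:105856078-105960643, minus strand) had mean levels of 12.5, 0.0729 and 1.05, of which the second is the lowest value in the BDL day 3 column. This was a difference from day 0 of at least 42.9-fold and then 11.9-fold. It also had an even day 0 group, with the highest library holding 38.9% of the sum, an SD of 0.53 and no day 0 library under 7.97. *Col6a6* had 5.82, 0.0729 and 0.428, with a log2 ratio to day 0 of -4.32, a bound, at BDL day 3 and of -3.77 at BDL day 14.

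The FACIT chains did not behave as 1 group. *Col14a1*, which binds the surface of type I fibrils, had mean levels of 43.9, 2.77 and 22.5. It was 15.9-fold lower at BDL day 3 but only 1.95-fold lower at BDL day 14, and it had the smallest SD of all chains (0.53). *Col12a1*, a fibril-binding chain of dense connective tissue, had 1.58, the floor and 1.99, with a BDL day 14 to day 0 ratio within the 1.5-fold limit. After quantile normalization its log2 ratios to day 0 went from -2.44 and 0.33 to -0.28 and 1.31. *Col16a1*, found near basement membranes and fibrils, had 6.70, 0.901 and 0.754. It was 7.44-fold and 8.89-fold lower at the 2 times, and its log2 ratios moved from -2.89 and -3.15 to -2.17 and -2.43 without its highest day 0 library.

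Basement membrane chains separated into a high pair and a low pair. *Col4a1* and *Col4a2* form the common type IV network of all basement membranes, and their genes lie head to head on chr8, with starts that overlap by 22 bases (chr8:11312805-11312826, plus strand). The letters of that overlap, from the RefSeq promoter table of GRCm38.p6, are shown because both genes begin in them and are transcribed through them in opposite directions, and the capitals mark a GC box.
Col4a1 and Col4a2 shared start: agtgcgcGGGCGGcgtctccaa
*Col4a1* had mean levels of 121, 15.3 and 95.0, and *Col4a2* had 70.0, 12.5 and 93.4. Both were below day 0 at BDL day 3, by 7.91-fold and 5.60-fold. At BDL day 14 neither differed from day 0 by more than 1.5-fold.

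The direction of *Col4a2* at BDL day 14 rested on 1 library. Its highest library lay in that group and held 62.4% of the group's sum, above an equal share of 4 libraries. With it the mean was 93.4, above the 70.0 of day 0, and without it the mean was 46.9. The ratio to BDL day 3 was 7.47-fold with that library and 3.75-fold without it. For *Col4a1* the highest library, 229, could not be placed, and the ratio of BDL day 14 to BDL day 3 was 6.21-fold.

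*Col4a5* and *Col4a6*, the X-linked pair found in specialised basement membranes and around smooth muscle, followed the fibrillar chains instead. They are transcribed away from each other with 1308 bases between their genes. *Col4a5* had mean levels of 7.66, 0.363 and 1.63, 21.1-fold and 4.70-fold lower than day 0. Its highest day 0 library held 67.9% of the sum, and without it the differences were 10.2-fold and 2.26-fold. *Col4a6* had 7.58, the floor and 0.521, at least 26.0-fold lower at BDL day 3 and 14.5-fold lower at BDL day 14. The log2 ratio of BDL day 14 to BDL day 3 for *Col4a6*, 0.84, is a bound and became -0.11 after quantile normalization.

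Multiplexins, whose cut ends include endostatin, were lower at both times. *Col15a1* had mean levels of 12.3, 0.481 and 3.77, 25.6-fold and 3.26-fold lower than day 0. *Col18a1*, the source of endostatin (chr10:77052178-77166548, minus strand), had 20.4, 6.73 and 5.28, 3.03-fold and 3.86-fold lower. Without its highest day 0 library these became 1.98-fold and 2.52-fold. *Col18a1* overlaps *Slc19a1* on the other strand by 8825 bases, and whether counting used the strand is not given in the sources used here.

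The last pair of chains ended at or above their day 0 level. *Col8a1*, a short-chain collagen of vessel walls and a member of the hexagonal network of Descemet's membrane, had mean levels of 1.48, the floor and 1.44. After quantile normalization its log2 ratios to day 0 went from -2.34 and -0.04 to -0.17 and 1.02. The estimated SD of *Col8a1* was 1.94, and its highest library, 4.45, could not be placed. By the limits, 1 library could hold the whole day 0 level of this chain. *Col13a1*, a transmembrane collagen of cell adhesion sites (chr10:61838236-61979108, minus strand), had 5.98, 5.29 and 16.0. It was 2.68-fold higher at BDL day 14 than at day 0, with an estimated SD of 1.04 on the log2 scale beside a log2 difference of 1.42. Its highest library lay at BDL day 14 and held 49.4% of that group's sum, and without it the mean was 10.8 and the difference 1.81-fold.

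The other 9 chains stayed under the minimum, with sums from 2.02 to 8.95 over the 10 libraries. They were *Col7a1*, *Col4a3*, *Col4a4*, *Col6a4*, *Col8a2*, *Col9a3*, *Col11a1*, *Col20a1* and *Col23a1*. The highest mean was at day 0 for 7 of them, at BDL day 3 for *Col20a1* and at BDL day 14 for *Col11a1*. At BDL day 3, 7 of the 9 were at the floor, and at BDL day 14, 6 were. *Col4a3* and *Col4a4*, the chains of kidney and lung basement membrane, had day 0 means of 1.37 and 0.938. With the 9 included, 30 of 33 chains were lower at BDL day 3 (35.9% of all 14232 protein-coding genes), and 27 were lower at BDL day 14 (34.8%). From BDL day 3 to BDL day 14, 20 were higher (2984 of the 14232).

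**Figure D3:**
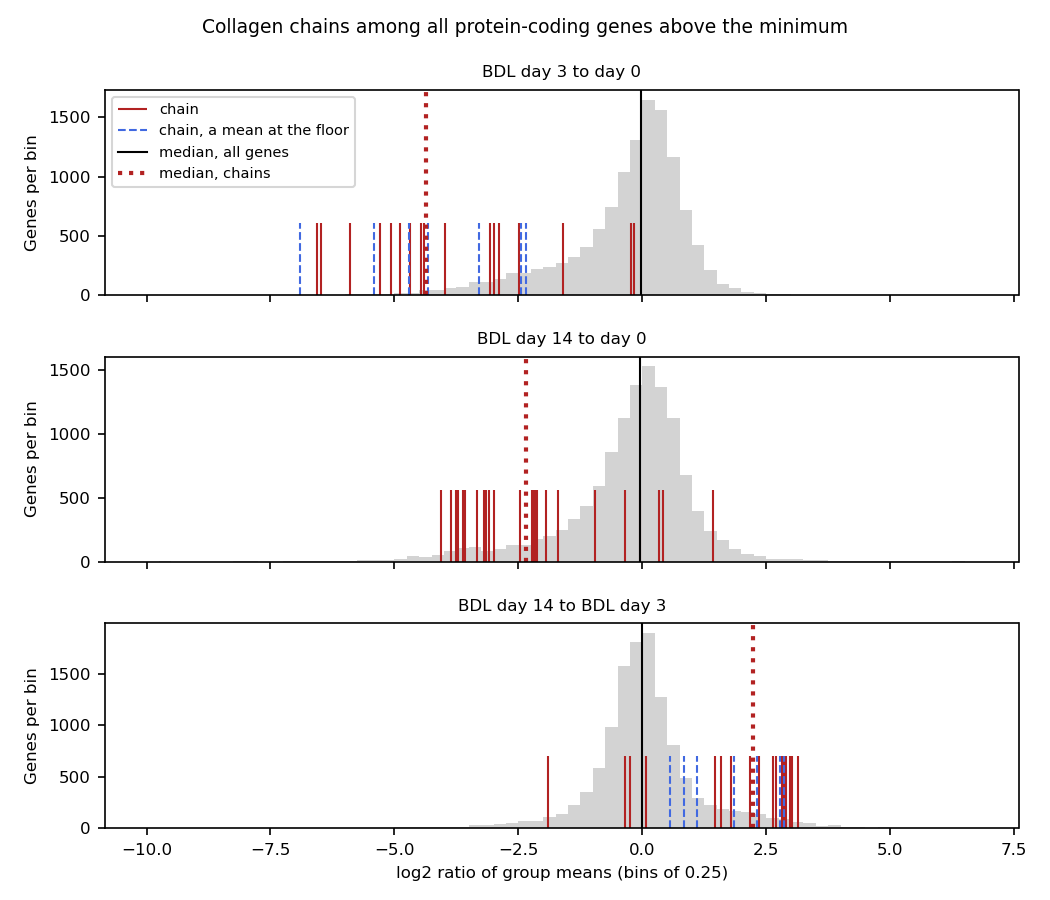
Histograms of the log2 ratio of group means over the 12071 protein-coding genes above the minimum (bins of 0.25) for the 3 comparisons, with the 24 collagen chains as short lines (dashed where a mean was at the floor), the median of all genes (black) and the median of the chains (dotted). The chain medians of -4.36, -2.35 and 2.24 stand beside -0.02, -0.04 and -0.01 for all genes.

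The make-up of the collagen signal differed between the groups. Per kb of the longest coding transcript, fibrillar chains held 66.0% (day 0), 24.1% (BDL day 3) and 25.9% (BDL day 14). Basement membrane chains held 13.2%, 35.4% and 50.0%, and type VI chains held 13.3%, 7.31% and 5.21%. The transmembrane class, nearly all *Col13a1*, held 0.854%, 14.0% and 8.71%. By mean level, not per kb, the basement membrane share at BDL day 14 was 55.1%. It was 49.0% without the highest library of each gene where that could be placed. No error could be estimated for these shares, since they come from pooled means.

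Ranked per kb within day 0, the order was *Col3a1* (75.8 per kb), *Col1a2* (47.7), *Col1a1* (26.1), *Col4a1* (18.3), *Col6a1* (14.3) and *Col6a2* (12.1). At BDL day 3 the first 3 were *Col4a1* (2.31), *Col4a2* (1.94) and *Col13a1* (1.67). At BDL day 14 they were *Col4a2* (14.5), *Col4a1* (14.4) and *Col3a1* (5.80). The first place of *Col4a2* rested on its highest library, without which its mean level was 46.9, beside 95.0 for *Col4a1*. Neighbours in these orders differ by less than the estimated spread of either chain, except for *Col4a1* and *Col3a1* at BDL day 14.

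**Figure D4:**
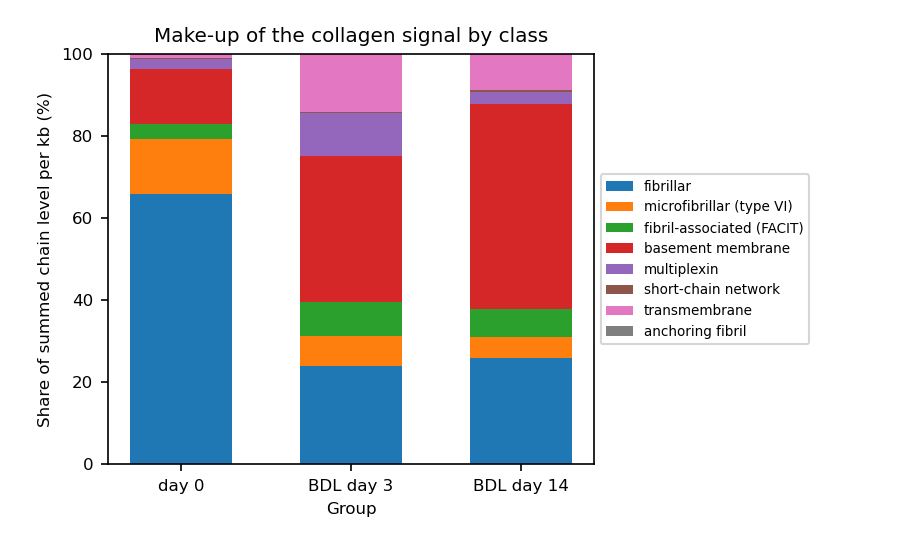
Share of the summed collagen level per kb of transcript (percent) held by each of the 8 classes in each group, from the pooled means of 33 chains. Fibrillar chains hold 66.0%, 24.1% and 25.9% and basement membrane chains 13.2%, 35.4% and 50.0%.

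Promoter letters of chains that differed alike and of *Col13a1*, which did not follow them, are shown so that their sequences can be set beside the values. RefSeq windows of GRCm38.p6 were matched for 27 of 33 chains. *Col1a1*, *Col4a3*, *Col5a2*, *Col9a3*, *Col12a1* and *Col14a1* had no match. The 150 bases before the start are given 5′ to 3′ on the gene's strand for 5 chains whose stretch holds no annotated exon. These 5 were picked by their values, and other chains with such a stretch, *Col11a2* among them, are not shown. A link of letters to levels was not tested. Capitals mark the letters of a CCAAT box (CCAAT), a GC box (GGGCGG) or a TATA box (TATAAA) on either strand.
Col3a1 (chr1:45311388-45311537, plus strand): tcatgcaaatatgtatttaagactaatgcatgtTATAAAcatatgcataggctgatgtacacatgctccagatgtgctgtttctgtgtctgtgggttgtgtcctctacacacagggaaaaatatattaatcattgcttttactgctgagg
Col5a1 (chr2:27886275-27886424, plus strand): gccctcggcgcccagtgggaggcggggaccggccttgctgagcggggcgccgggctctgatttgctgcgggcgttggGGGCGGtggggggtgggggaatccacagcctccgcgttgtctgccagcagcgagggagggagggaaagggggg
Col6a3 (chr1:90843972-90844121, minus strand): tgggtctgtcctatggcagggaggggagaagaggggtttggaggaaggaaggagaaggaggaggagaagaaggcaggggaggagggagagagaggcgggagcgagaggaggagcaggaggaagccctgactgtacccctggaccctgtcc
Col6a5 (chr9:105960644-105960793, minus strand): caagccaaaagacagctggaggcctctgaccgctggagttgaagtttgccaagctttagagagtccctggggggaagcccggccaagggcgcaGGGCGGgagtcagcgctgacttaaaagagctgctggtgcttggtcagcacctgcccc
Col13a1 (chr10:61979109-61979258, minus strand): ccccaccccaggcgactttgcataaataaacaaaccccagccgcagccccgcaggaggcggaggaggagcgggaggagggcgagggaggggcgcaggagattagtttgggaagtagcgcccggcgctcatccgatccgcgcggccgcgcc
*Col3a1* holds a TATA box in this stretch, *Col5a1* and *Col6a5* each hold a GC box, and *Col6a3* and *Col13a1* hold none of the 3 motifs in it. In the full 250 bases before the start, a GC box was found in 19 of 27 chains (70.4%), in 58.3% of the kept protein-coding genes with a window and in 32.9% of all 27025 genes with one. A CCAAT box was found in 10 chains (37.0%), 36.6% of kept genes and 34.5% of all genes, and a TATA box in 3 chains (11.1%), 6.76% and 13.0%. The 3 chains with a TATA box were *Col3a1*, *Col11a2* and *Col13a1*, the last upstream of the printed letters. The motifs share no letters that would let 1 match count for another. These are matches of letters only.

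Genes that make, fold and cross-link collagen did not all follow the chains. Among the 14 hydroxylase and glycosyltransferase genes measured, which modify the chains inside the cell, 7 were lower and 3 higher by more than 1.5-fold at BDL day 3. At BDL day 14 the counts were 7 and 2. Of all genes kept, 28.9% were lower and 18.8% higher at BDL day 3. At the later time these were 28.5% and 20.5%, so the shares of these genes that were higher are near or under the background. *Plod2*, a lysyl hydroxylase, had mean levels of 2.44, 0.315 and 0.538. *P3h2*, a prolyl 3-hydroxylase of basement membrane collagen, had 2.91, 0.468 and 2.54, and *P4ha2*, a subunit of prolyl 4-hydroxylase, had 11.0, 7.20 and 2.10. The genes higher at BDL day 3 were *P4hb*, *Plod1* and *Colgalt1*, which many cell types use, with 1.86-fold, 2.46-fold and 3.06-fold.

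Of 9 genes for folding and secretion, 5 were lower and 0 higher at BDL day 3, when 28.9% of all genes were lower and 18.8% higher. At BDL day 14, 2 were lower and 0 higher, and the lower share is under that of all genes (28.5%). *Serpinh1*, the chaperone HSP47 that binds procollagen, had mean levels of 117, 7.09 and 25.2, and followed the order of the fibrillar chains. *Sparc*, a matrix protein that binds collagen, had 386, 55.0 and 271, closer to the pattern of *Col4a1*. *Fkbp10*, a folding enzyme of the endoplasmic reticulum, had 4.94, 0.541 and 4.40.

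Of 8 genes kept for procollagen processing and cross-linking, 7 were lower and 1 higher at BDL day 3, and all 8 were lower at BDL day 14. Of all genes, 28.9% and 28.5% were lower at these times, and 18.8% were higher at BDL day 3. *Adamts2*, which removes the amino end of fibrillar procollagens, had mean levels of 29.9, 0.457 and 5.58, 65.4-fold and 5.36-fold lower than day 0. *Loxl1*, a cross-linking oxidase, had 18.9, the floor and 3.31, at least 64.8-fold lower at BDL day 3. *Loxl2*, a related oxidase, had 10.1, 0.989 and 2.44, and *Lox* had 4.20, 0.667 and 1.61.

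*Bmp1*, which cuts the carboxyl end of procollagens, had mean levels of 8.74, 1.73 and 3.57, and its enhancer *Pcolce* had 27.4, 2.00 and 5.92. *Pcolce2*, a relative of *Pcolce*, went the other way at BDL day 3, with 48.9, 109 and 2.35. It was 2.23-fold higher at BDL day 3 and 20.8-fold lower at BDL day 14.

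Of 9 genes kept for collagen receptors and uptake, 6 were lower and 1 higher at BDL day 3, and 4 were lower and 2 higher at BDL day 14. Of all genes, 28.9% and 28.5% were lower at these times. The higher shares lie near or under those of all genes (18.8% and 20.5%). *Ddr2*, a receptor for fibrillar collagen, had mean levels of 9.79, 0.436 and 0.996, and *Mrc2*, an uptake receptor of mesenchymal cells, had 6.37, the floor and 1.60. *Ddr1*, the related receptor of epithelia, had 9.00, 3.23 and 2.16. *Itga1*, the integrin subunit that pairs with *Itgb1* on basement membrane collagen, had 23.2, 2.94 and 25.3, at day 14 near its day 0 level as *Col4a1* was. The gene higher at BDL day 3 was *Lair1*, a collagen receptor of leukocytes, with 82.5, 196 and 198.

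By summed mean level, smooth muscle, portal fibroblast and stellate cell markers all had the order of most chains. The stellate order rested on *Hgf*, and single stellate markers were mixed. As background for the counts below, 28.9% of all genes kept were lower than day 0 after 3 days of BDL, and 28.5% after 14 days. The shares of genes that were higher were 18.8% and then 20.5%. Between the BDL groups, 20.4% were higher on day 14 and 19.3% were lower. All 7 smooth muscle markers were lower by more than 1.5-fold at both times, with summed mean levels of 625 (day 0), 10.6 (BDL day 3) and 46.7 (BDL day 14), and *Cnn1* and *Lmod1* were at the floor at BDL day 3. *Acta2*, the smooth muscle actin also made by myofibroblasts, had 228, 3.86 and 19.7. Of 9 portal fibroblast markers, 8 were kept. Of these, 8 and then 7 were lower in the BDL groups, with sums of 264, 14.2 and 37.9, and *Dpt*, *Clec3b* and *Mfap4* were at the floor at BDL day 3. From BDL day 3 to BDL day 14, 7 were higher and 1, *Thy1*, was lower. *Thy1* had 29.8, 7.06 and 4.01, and *Pi16* was highest at BDL day 14 with 6.47, 2.01 and 7.04. The marker under the minimum, *Gli1*, was at the floor at day 0 and BDL day 3. Of 8 stellate cell markers, 7 were kept and 6 were lower at both times, with sums of 74.4, 17.2 and 27.5. *Lrat*, the vitamin A enzyme of stellate cells, had 6.14, 0.590 and a floor value. The exception was *Hgf*, with 3.73, 10.8 and 22.1, and without it the stellate sums were 70.7, 6.39 and 5.39, with no return at BDL day 14. From BDL day 3 to BDL day 14, 3 stellate markers were lower and 3 higher, with a median log2 ratio of -0.57. The part of these cells in the collagen levels was not tested.

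Of the other cell types, endothelial and mesothelial markers also had their lowest sum at BDL day 3 and their highest at day 0. Single markers were mixed. Endothelial *Cdh5* had 207, 299 and 81.5, while *Kdr*, *Lyve1* and *Clec4g* were highest at BDL day 14. Mesothelial *Msln* (8.56, 3.46 and 3.11) and *Upk3b* (2.14, 1.09 and 0.504) were lowest at BDL day 14. The mesothelial order thus rested on *Gpm6a*, with 4.76, 0.671 and 5.30. Endothelial markers, of which all 8 were kept, summed to 1208, 640 and 1058, with 7 and then 3 below day 0 and 6 higher at BDL day 14 than at BDL day 3. Of all genes kept, 28.9% and then 28.5% were lower than day 0, and 18.8% and then 20.5% were higher. From BDL day 3 to BDL day 14, 20.4% of all genes were higher. Hepatocyte markers summed to 3344, 972 and 408, with 7 and 8 of 8 lower, and mesothelial markers to 16.0, 5.29 and 9.09, with 3 and 2 of 3 kept lower. Cholangiocyte markers were lower in 8 of 9 kept at BDL day 3 and in 7 at BDL day 14, where only *Spp1* was higher. Macrophage markers were lower in 0 of 8 and higher in 6 at BDL day 3, and lower in 1 and higher in 3 at BDL day 14. The 3 endothelial and 1 macrophage markers lower at BDL day 14 lie near or under the share of all genes. *Clec4f*, a Kupffer cell lectin, had 4610, 6890 and 185. The part of these cells in the collagen levels was not tested either.

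**Figure D5:**
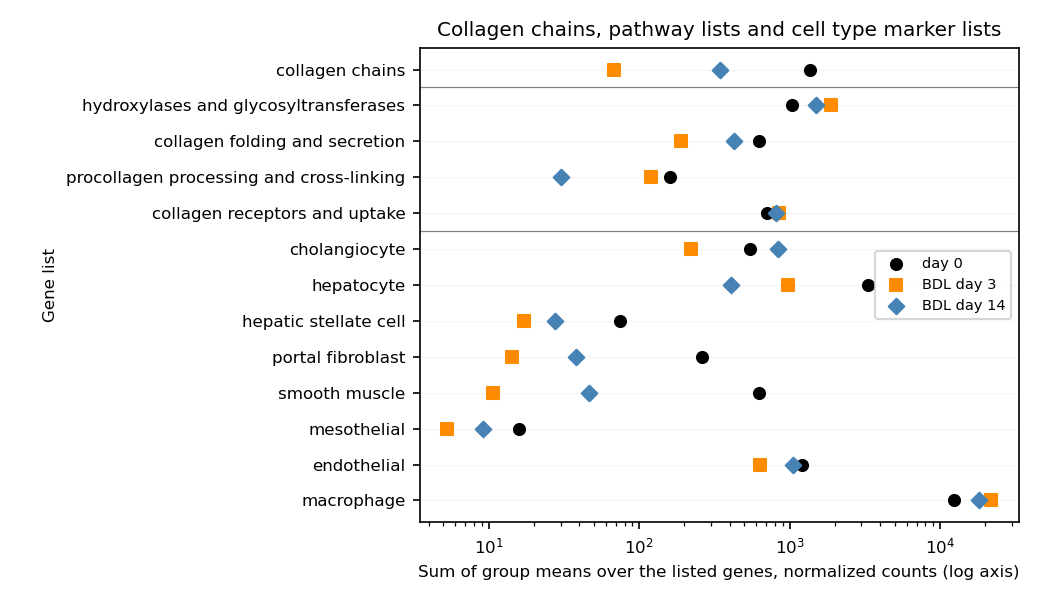
Sum of the mean levels (normalized counts, log axis) of the 33 collagen chains, 4 pathway lists and 8 cell type marker lists, for day 0 (circles), BDL day 3 (squares) and BDL day 14 (diamonds). Collagen chains have 1371, 68.5 and 346, smooth muscle markers 625, 10.6 and 46.7, and macrophage markers 12470, 21930 and 18150.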

How the data were processed

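Total RNA of sorted GFP(+) cells was sequenced after TruSeq mRNA preparation. According to the study's methods, the authors trimmed the reads in Partek Flow, aligned them to mm10 with STAR (version 2.6.1d in the submitters' processing notes, another in the methods) and counted them on GENCODE genes. The deposited signal values are the authors' least squares means of upper-quartile normalized counts per group, with the arithmetic and geometric mean over all libraries and the highest library. Columns of the authors' comparisons (p-value, FDR, ratio, log2 ratio, fold change and limits) were not used. There were 0 columns of values per library. Weights of 3, 3 and 4 libraries gave back the arithmetic mean within 0.469% (99th percentile). The nearest other group sizes with the same total gave 19.9%. The study left out 2 BDL day 14 samples because they had too few reads. Which 2 BDL day 14 libraries are not in the table is not given in the sources used here.

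Means were raised to the floor before ratios were taken. Its reading as an offset of about 1 read per library is an assumption. Genes were called by size alone, at the 1.5-fold limit of the study's methods, in Python 3.11.15 with pandas 2.3.3 and numpy 2.4.6, and figures were drawn with matplotlib 3.10.9. The steps were tested on simulated data. Coordinates equal those of GENCODE M21 for 33 of 33 chains. Levels per kb used the longest protein-coding transcript of that release. The text names every chain that passed the minimum, and pathway genes that differed by at least 4-fold from day 0. *P4hb*, *Plod1*, *Colgalt1*, *Lair1*, *Krt19*, *Acta2*, *Lrat*, *Gli1*, *Clec4f* and *Hgf* were named after their values were seen. So were the other cell type markers named singly for their value, direction or floor. The chains and lists were chosen with earlier results of these data known. Of the class lists, 11 chains are not among the genes of the deposited values. The alternatives were other filters, a pseudocount, no floor, other scalings, a larger fold, and means without the highest library.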

Additional observations from a re-analysis of the deposited data

How the results depend on the processing

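The counts of chains at the 1.5-fold limit were within 1.5 times their value under every alternative but a mean of at least 10, which leaves 11 chains. There 11 were lower at BDL day 3 (14.8% of the 7139 genes so filtered), 9 were lower at BDL day 14 (17.1%) and 10 were higher at BDL day 14 than at BDL day 3 (14.1%), with medians of -5.06, -3.09 and 2.82. The medians for BDL day 3 to day 0 and for BDL day 14 to BDL day 3 became -2.98 and 1.46 with no filter, -2.95 and 1.37 with a pseudocount of 1, and -3.08 and 1.40 after quantile normalization. Quantile normalization turned the *Col4a6* ratio of BDL day 14 to BDL day 3 to -0.11, moved the median of all genes to 0.11 and 0.09 against day 0, and called 20 chains lower at BDL day 3. Of 465 single-chain comparisons, 456 kept their side of the limit, 5 fell short of it, 3 newly passed it and 1 turned from a called difference. The sign turned in 7, which include 5 of the 456, all within the limit before: *Col4a2* at BDL day 14 against day 0 without its highest library, and under quantile normalization *Col11a2* and *Col13a1* at BDL day 3 against day 0 and *Col6a6* and *Col27a1* at BDL day 14 against BDL day 3. The shares of fibrillar chains stayed within 1.5 times under both of their alternatives. No paired analysis was possible because no result comes from a test and the table carries no replicate numbers. Pooled means, unknown depth and 1 unnamed highest library per gene limit every value here, and low chains most.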
